A study of Mus musculus with 65 samples.

Results

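The Zfp genes are mouse genes for zinc finger proteins that carry the symbol Zfp followed by digits, and most encode DNA-binding proteins built from arrays of fingers. They were taken here as all protein-coding rows of the deposited table with such a symbol and a value above 0 in at least 1 cell, leaving out Zfp36, which encodes an RNA-binding protein with another kind of finger. The table held 192 such genes and 158 of them had a value above 0 in at least 1 of the 65 cells, out of 6826 genes of any kind with a value above 0. These 158 genes are called the Zfp genes below, and a gene is called detected in a cell where its estimated count is above 0.

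The cells were single long-term hematopoietic stem cells from the bone marrow of SCL-tTAxH2B-GFP double heterozygous mice older than 20 months, sorted as LSK, CD34-/low, Flk2-, CD48- and CD150+. The 37 GFP-positive cells are aged label-retaining stem cells (aLR-HSCs), and the 28 GFP-negative cells are aged non-label-retaining stem cells (anLR-HSCs). In such mice the H2B-GFP histone label is made under the SCL promoter until it is switched off, and each division then dilutes it, so GFP reports few divisions. A negative cell can have diluted its label or never made it, and the labels do not separate these. All cells of both groups shared the transgenes, the age and a night in culture at 3% oxygen without growth factors. Each of 4 biological repeats gave cells of both groups, namely 9, 9, 10 and 9 aLR-HSCs and 8, 4, 6 and 10 anLR-HSCs in repeats 1 to 4.

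A classical zinc finger is a short loop in which a pair of cysteines and a pair of histidines hold a zinc ion and a helix reads a few bases of DNA. Many Zfp proteins join such fingers to a KRAB domain, which recruits Trim28 and with it histone methylation and heterochromatin proteins, and many of their known targets are transposable elements and imprinted loci. The genes arose largely by tandem duplication, so they lie in clusters of neighbours with similar sequence. The targets and functions of most of them are not known.

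Zfp329 was the Zfp gene detected in the most cells, and 2 neighbouring fingers of its coding sequence show the repeat that the family is built from. The sequences are the coding strand of the GENCODE M21 transcript on GRCm38 (the mm10 build), 5′ to 3′. Zfp329 lies at chr7:12803778-12818895. Capitals mark the codons of the paired cysteines and histidines that hold the zinc.
Zfp329 finger 1, coding bases 556 to 639: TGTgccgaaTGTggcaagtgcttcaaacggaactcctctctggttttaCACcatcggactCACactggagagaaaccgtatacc
Zfp329 finger 2, coding bases 640 to 723: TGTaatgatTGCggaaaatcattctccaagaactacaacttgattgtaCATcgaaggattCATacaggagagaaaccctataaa
Of the 84 bases in each finger, 53 were the same, and both end on bases that encode the linker between fingers.

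Likeness between neighbours is shown by Zfp108 and Zfp93, next to each other on chromosome 7 at chr7:24254726-24262445 and chr7:24267984-24277794. This neighbouring pair had the highest share of identical coding bases in any cluster, 88.2%. Capitals mark the 6 of 120 bases that differ.
Zfp108, coding bases 21 to 140: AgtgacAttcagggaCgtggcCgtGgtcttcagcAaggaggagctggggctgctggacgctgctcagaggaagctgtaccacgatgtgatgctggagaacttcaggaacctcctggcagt
Zfp93, coding bases 21 to 140: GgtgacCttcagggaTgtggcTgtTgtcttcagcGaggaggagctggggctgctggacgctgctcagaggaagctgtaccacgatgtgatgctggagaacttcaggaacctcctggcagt
This stretch encodes part of the KRAB domain in both genes. Zfp108 was detected in 1 aLR-HSC and in 0 anLR-HSCs, Zfp93 in 3 aLR-HSCs and in 1 anLR-HSC, and no cell had both. So few detections give no measure of whether the pair is detected together.

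The pair Zfp934 and Zfp935 on chromosome 13 shows the opposite case. They lie at chr13:62516795-62579321 and chr13:62453016-62466852, and the longest run of bases that both coding sequences share has 53 bases.
Zfp934 and Zfp935, shared run: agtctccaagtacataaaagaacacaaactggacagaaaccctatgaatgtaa
Both genes were detected in the same 46 cells, and in 45 of these their values were equal, so the deposited counts do not tell them apart. Estimated counts need not be whole numbers, since reads that fit several genes are divided among them. All 50-base words of the Zfp935 transcript also occurred in transcripts of other genes. Every statement on one of these genes below holds for both.

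The table used here covered the genome in part. Of the protein-coding genes that RefSeq places on chromosomes 1, 6, 7, 10, 11, 12, 13 and 18, between 90.7% and 98.5% per chromosome had a row, whereas none matched on chromosomes 2, 3, 4, 15 and 16, and between 16.3% and 37.9% matched on the others with any row. RefSeq lists 366 Zfp genes by the same rule of symbol, and the 174 with no matching row were not analysed here. The well covered chromosomes held 146 of the 158 Zfp genes detected. Chromosome 7 held 77 of them, chromosome 13 held 23, chromosome 6 held 14, chromosome 11 held 12 and chromosome 18 held 10.

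Depth and shared counts touch every result on detection. The sum of estimated counts over the table was 27954, 264894 and 20516069 in the lowest, median and highest aLR-HSC, and 86, 118056 and 661078 in the lowest, median and highest anLR-HSC. Of 16 stem cell markers 10 had a row and 9 were detected. Hlf was in 31 of 37 aLR-HSCs and 12 of 28 anLR-HSCs, and Gata2 in 24 aLR-HSCs and 10 anLR-HSCs. Meis1, Ifitm1 and Ifitm3 were in 24, 14 and 17 aLR-HSCs and in 12, 5 and 6 anLR-HSCs. Fgd5, Hoxb5, Hoxa9 and Cdkn1c were rare, in 1, 2, 5 and 3 aLR-HSCs and in 1, 0, 0 and 1 anLR-HSCs. Of Cd34, Flt3 and Cd48, whose proteins the sort selects against, 2 had a row and were at 0 in all cells. The hemoglobin gene Hba-a1 was detected in 36 of 37 aLR-HSCs and 24 of 28 anLR-HSCs, and erythroid markers made up a median of 0.0185% and up to 92.8% of the counts of a single aLR-HSC, and a median of 0.279% and up to 7.93% of a single anLR-HSC. The cell anLR-HSC 3 of repeat 1 held counts of every one of the 1145 genes that had their highest value, of 1000 or more, in aLR-HSC 3 of the same repeat, the deepest cell of the series. The median was 1.56% of the value in the deepest cell, with 1.11% at percentile 10 and 2.04% at percentile 90, and an amount of that size equals 93.9% of all counts in the anLR-HSC. Of the 51 Zfp genes in that cell, 45 were also in the deepest cell. The 19 Zfp genes that led in the deepest cell at 1000 or more stood in the anLR-HSC at 0.441% to 2.37% of that value. In another 8 pairs, all between aLR-HSCs, 1 cell held at least 95% of the genes that had their highest value, of 1000 or more, in the other. How these counts came to be shared was not tested. The counts and shares that lead each comparison are given without anLR-HSC 3 of repeat 1 too, where that cell moves them. No result is given without the cells of the other 8 pairs, and their part in the shares of aLR-HSCs was not tested. The cell anLR-HSC 3 of repeat 1 was the only anLR-HSC with a value for 5 of the Zfp genes and 159 of all genes.

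**Figure D1:**
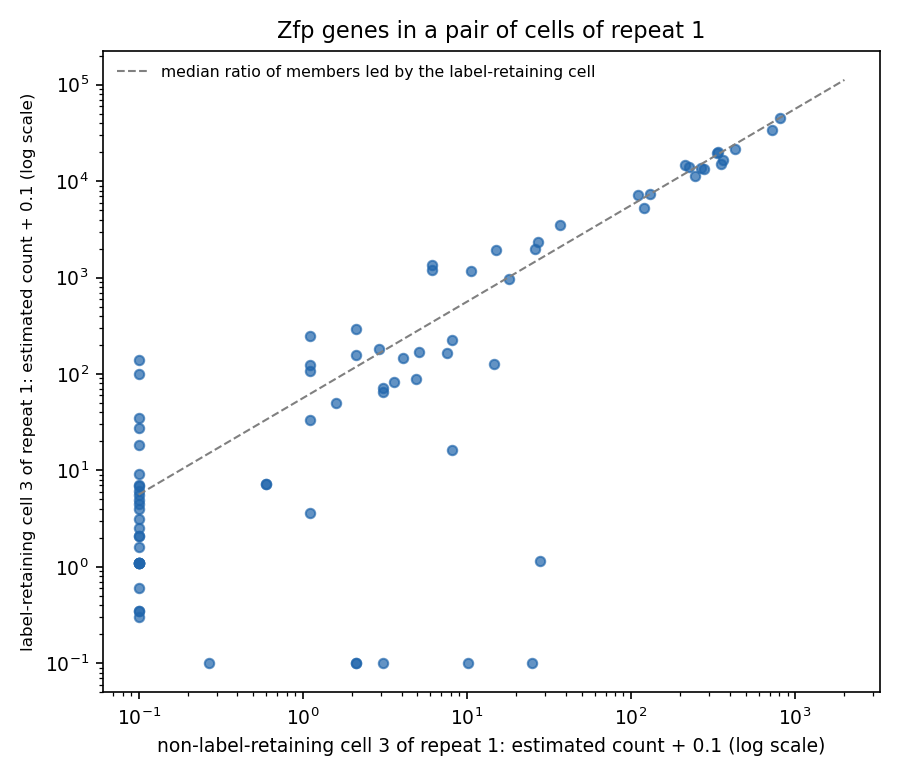
Each point is a Zfp gene, with its estimated count plus 0.1 in aLR-HSC 3 of repeat 1 on the vertical log axis and in anLR-HSC 3 of repeat 1 on the horizontal log axis. Genes high in the aLR-HSC follow the dashed line, at the median of 1.78% of their value in that cell.

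The aLR-HSCs had more Zfp genes detected per cell than anLR-HSCs, and the same held over all genes. The lowest, median and highest number of Zfp genes was 9, 36 and 82 over 37 aLR-HSCs and 0, 16.5 and 51 over 28 anLR-HSCs. By repeat, 34.0%, 19.6%, 19.9% and 25.2% of the 158 Zfp genes were detected in a mean aLR-HSC of repeats 1 to 4, and 13.8%, 14.7%, 15.0% and 8.48% in a mean anLR-HSC. The 4 aLR-HSC repeats all lay above the 4 anLR-HSC repeats. Without the 4 anLR-HSCs under 10000 counts the lowest aLR-HSC repeat and the highest anLR-HSC repeat, both repeat 2, were equal at 19.6%, and over all genes repeat 2 stood at 23.8% in aLR-HSCs and 23.9% in anLR-HSCs.

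The mean over repeats was 24.7% ± 6.71 in aLR-HSCs and 13.0% ± 3.05 in anLR-HSCs (SD, n = 4 repeats each). Over all 6826 genes it was 28.2% ± 6.53 in aLR-HSCs and 16.0% ± 4.06 in anLR-HSCs, so the ratio of aLR-HSCs to anLR-HSCs was 1.90 for the Zfp genes and 1.76 for all genes. When each cell was brought to 10000 counts by calculation, leaving out the 4 anLR-HSCs below that sum, the mean share of Zfp genes was 8.62% ± 2.71 in aLR-HSCs and 6.06% ± 3.19 in anLR-HSCs, and the repeats of the groups then overlapped. Over all genes it was 12.7% ± 3.51 in aLR-HSCs and 8.42% ± 4.59 in anLR-HSCs. The ratio at 10000 counts was thus 1.42 for the Zfp genes and 1.51 for all genes, the reverse of the order on the deposited values. Leaving out those 4 cells without that calculation gave a mean share of Zfp genes of 24.7% in aLR-HSCs and 14.9% ± 4.02 in anLR-HSCs, a ratio of 1.65, beside 1.55 over all genes. Counting only values of at least 10 gave 10.8% ± 3.51 in aLR-HSCs and 3.40% ± 1.45 in anLR-HSCs, a ratio of 3.16, beside 3.17 over all genes. By unscaled sums, depth moved together with the group in repeats 1 and 2, but not clearly in repeats 3 and 4. Over the genes tested for level below, counts summed to 2916085 in 10 aLR-HSCs and 1799763 in 6 anLR-HSCs of repeat 3. In repeat 4 they summed to 1541288 in 9 aLR-HSCs and 1700963 in 10 anLR-HSCs. The TMM factors that scale these sums in the level test below were 1.44 and 1.47 in aLR-HSCs of repeats 3 and 4. In anLR-HSCs of the same repeats they were 0.29 and 0.223. By these factors the groups differed in repeats 3 and 4 too, and the part of depth in the shares was not tested. Without anLR-HSC 3 of repeat 1 the mean of the anLR-HSCs was 12.3% ± 3.10. No test was made on these shares, since they pool chosen genes.

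**Figure D2:**
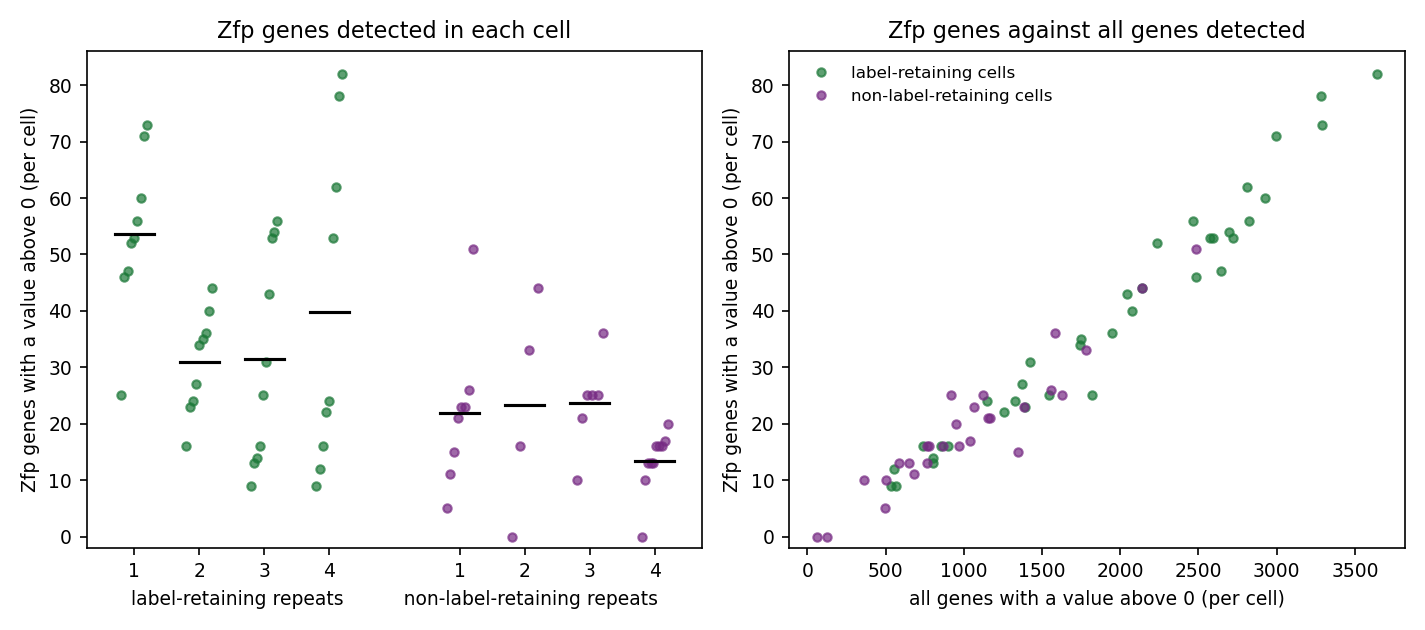
The left panel shows the number of Zfp genes with a value above 0 in each cell (points) and the mean of each repeat (lines), for aLR-HSCs and anLR-HSCs, and the right panel plots that number against the number of all genes detected in the cell. The aLR-HSCs range from 9 to 82 Zfp genes and the anLR-HSCs from 0 to 51, and both groups lie along 1 band.

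The number of Zfp genes followed the number of genes of any kind across the 65 cells, with Pearson's r = 0.978 and Spearman's rho = 0.973. This is a description across cells that share libraries and depth. Against the logarithm of the summed count r was 0.575. The share of a cell's counts that fell on Zfp genes was 0.0209%, 0.633% and 3.23% in the lowest, median and highest aLR-HSC and 0%, 0.153% and 7.79% in the lowest, median and highest anLR-HSC.

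Most Zfp genes were detected in few cells. The median was 8 of 65 cells, against 10 cells over all genes detected. A single cell accounted for 23 Zfp genes, another 35 were detected in 2 to 4 cells, 36 in 5 to 9, 30 in 10 to 19, 15 in 20 to 29 and 19 in 30 or more. For 114 of the 158 genes, 1 cell held more than 50% of all counts in the series. The cell with the highest value was an aLR-HSC for all but 10 of the 158 genes, and was the deepest cell for 28.

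**Figure D3:**
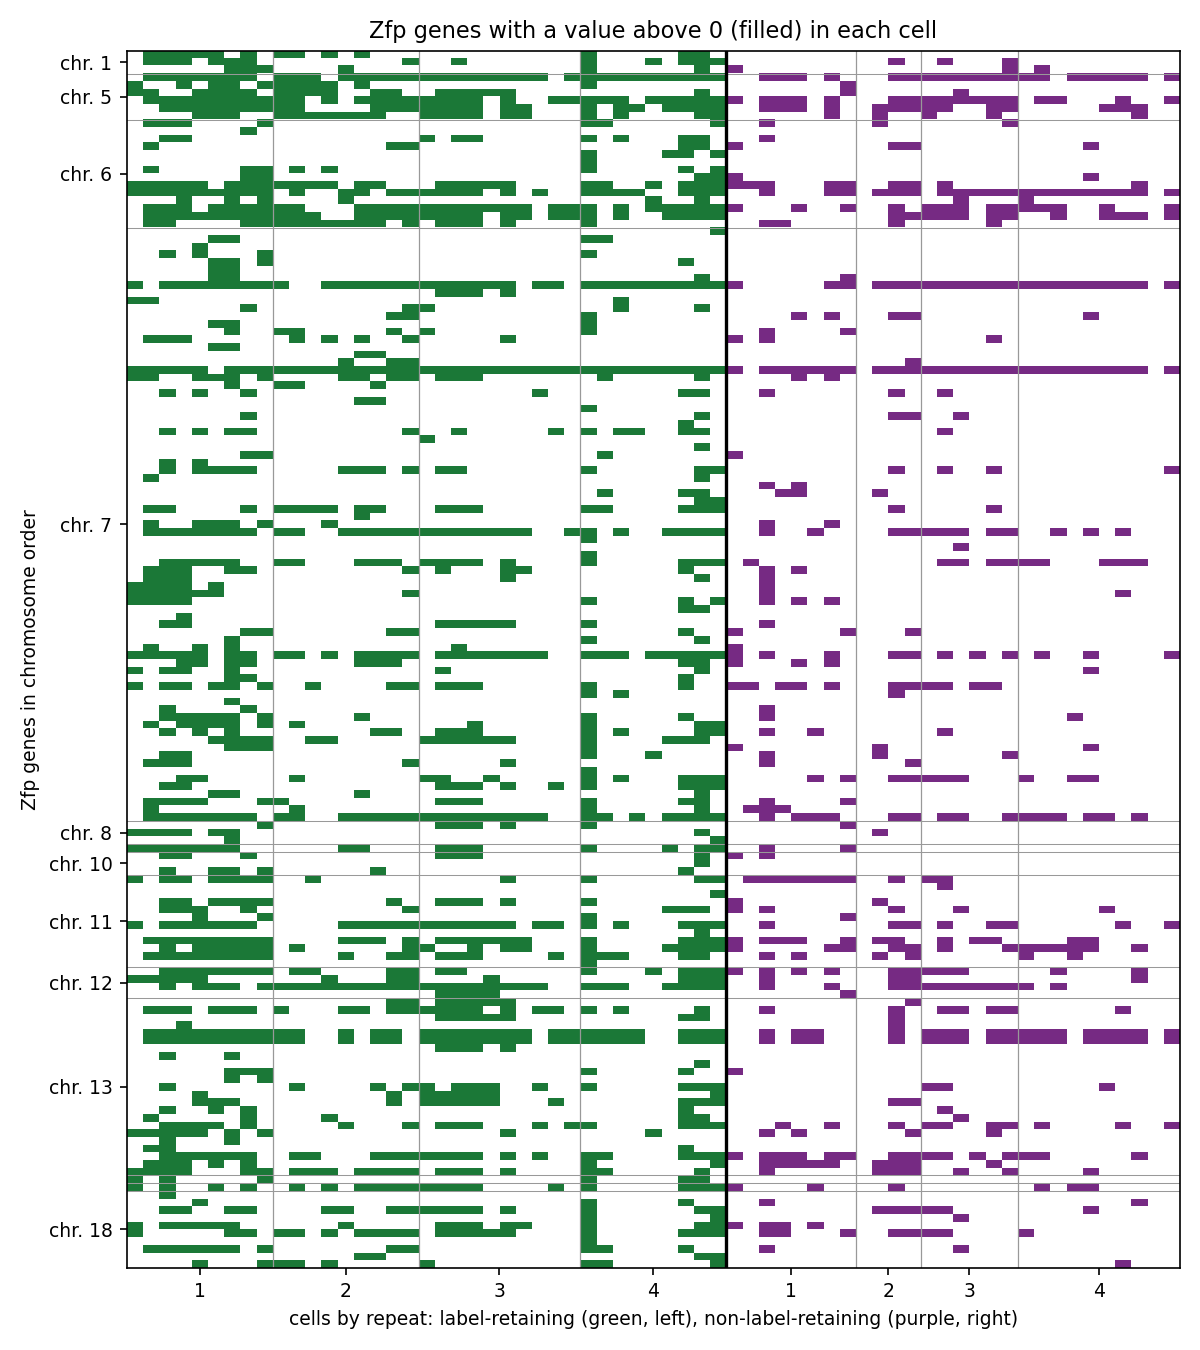
Each row is a Zfp gene in chromosome order and each column is a cell, with aLR-HSCs on the left in green and anLR-HSCs on the right in purple, parted by repeat. A filled field marks a value above 0, and the 2 rows filled across nearly all cells on chromosome 7 are Zfp444, in 53 cells, and Zfp329, in 61 cells.

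The 12 most widely detected Zfp genes were Zfp329, Zfp113, Zfp444, Zfp12, Zfp422, Zfp934, Zfp935, Zfp941, Zfp248, Zfp839, Zfp9 and Zfp141, in 40 to 61 cells. Zfp940 was also detected in 40 cells and came after Zfp141 only because ties were broken by symbol. Zfp329, with 12 fingers in its protein, was detected in 88.9%, 100%, 100% and 100% of the aLR-HSCs of repeats 1 to 4, and in 87.5%, 75.0%, 100% and 90% of the anLR-HSCs. Its estimated count had a median of 17.3 and a highest value of 2431 in aLR-HSCs, and a median of 10 and a highest value of 50.1 in anLR-HSCs. The groups overlapped for Zfp329 (exact permutation p = 0.257, two-sided, 4 repeats against 4).

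Zfp444, whose protein carries a SCAN domain for pairing with other such proteins, was detected in 32 of 37 aLR-HSCs and 21 of 28 anLR-HSCs. Zfp113 was detected in 33 aLR-HSCs and 20 anLR-HSCs. Of the 12 genes, Zfp141 and Zfp941 had shares that did not overlap between the groups. At 10000 counts a cell, 9 of the 12 had a smaller share in aLR-HSCs than in anLR-HSCs. Zfp934 and Zfp935, which the counts do not tell apart, are both among these 9. The mean share over all genes at that setting was larger in aLR-HSCs, at 12.7% against 8.42%. The matching count over all genes, or over genes as widely detected, is not given here, so nothing particular to the 12 is read from the 9.

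Many values of these 12 genes were not whole counts. A median of 68.5% of their non-zero values were not whole numbers (tolerance 0.0001), with a range of 26.8% to 87.0%, against a median of 9.76% for the other Zfp genes. Zfp940, at 87.5%, lay above all 12, so the 2 sets overlapped. Their transcripts shared 50-base words with 1 to 1021 other genes, with a median of 86, against a median of 1 other gene for the rest. Zfp839 shared such words with 1021 genes, Zfp248 with 944 and Zfp113 with 678, each time over less than 3% of its transcript. Over all Zfp genes 41.0% of non-zero values were fractional, against 34.9% over all genes. What these fractional values owe to reads from other genes was not tested.

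The groups were compared gene by gene on the share of cells with the gene detected. The test was an exact two-sided permutation of the 4 and 4 repeat shares, whose smallest possible p is 0.0286, with Benjamini-Hochberg adjustment over all 6826 genes. No gene passed after adjustment, since the smallest adjusted p was 0.595. At an unadjusted p of 0.0286, 9 Zfp genes had a larger share in aLR-HSCs, which is 5.70% of 158, beside 4.81% of all genes. None had a smaller share, beside 0% of all genes. With repeats as pairs no p can fall under 0.125, so none of the 9 would be called. The share of Zfp genes at the smallest p was thus near that of all genes.

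Zfp771 showed the clearest separation among the 9. It was detected in 44.4%, 22.2%, 60.0% and 44.4% of aLR-HSCs in repeats 1 to 4, and in 0% of anLR-HSCs in each repeat. Its estimated counts were whole in all 16 aLR-HSCs that had it, with a highest value of 784, and it was at 0 in 28 of 28 anLR-HSCs, which allows a share of up to 10.7% of cells with a value above 0 (counting error only, with cells taken as independent). It sets no limit on expression itself, and 4 of the 28 held fewer than 10000 counts in all. Its transcript shared no 50-base word with another gene.

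Zfp592, whose human counterpart belongs to a chromatin complex with ZMYND8, was detected in 66.7%, 11.1%, 10% and 33.3% of aLR-HSCs and in 0% of anLR-HSCs in each repeat. Its values were whole in all 11 cells. Zfp84 was detected in 33.3%, 66.7%, 30.0% and 55.6% of aLR-HSCs, and in 0%, 25.0%, 16.7% and 0% of anLR-HSCs. These 3 genes kept p = 0.0286 (unadjusted, exact permutation) at 10000 counts a cell and also when fractional values were counted as 0. At values of at least 10 Zfp771 kept it, while Zfp592 and Zfp84 each stood at p = 0.429, in 5 and 6 aLR-HSCs and in 0 anLR-HSCs, and without the 4 shallow cells Zfp84 stood at 0.0857 (exact permutation, unadjusted).

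The remaining 6 kept that p neither at 10000 counts a cell nor with fractional values counted as 0. Zfp141 was detected in 77.8%, 77.8%, 70.0% and 88.9% of aLR-HSCs, against 37.5%, 50%, 50% and 30.0% of anLR-HSCs. With fractional values counted as 0 its direction turned, with whole values in 4 aLR-HSCs and 6 anLR-HSCs. Zfp941 averaged 78.3% ± 1.11 in aLR-HSCs and 52.5% ± 5.00 in anLR-HSCs (SD, n = 4 repeats each), but 20.7% in aLR-HSCs and 21.8% in anLR-HSCs at 10000 counts a cell.

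Zfp287, with SCAN and KRAB domains, averaged 67.2% ± 13.5 in aLR-HSCs and 33.1% ± 19.7 in anLR-HSCs. Zfp959 averaged 51.4% ± 10.5 in aLR-HSCs and 20.0% ± 13.5 in anLR-HSCs. Zfp595 was detected in 8 aLR-HSCs and 0 anLR-HSCs, 5 of them in repeat 3, and it overlaps Zfp953, with which it shared equal values in 6 cells. Zfp78 was detected in 5 aLR-HSCs and 0 anLR-HSCs, but no value exceeded 0.5, which is less than 1 read.

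**Figure D4:**
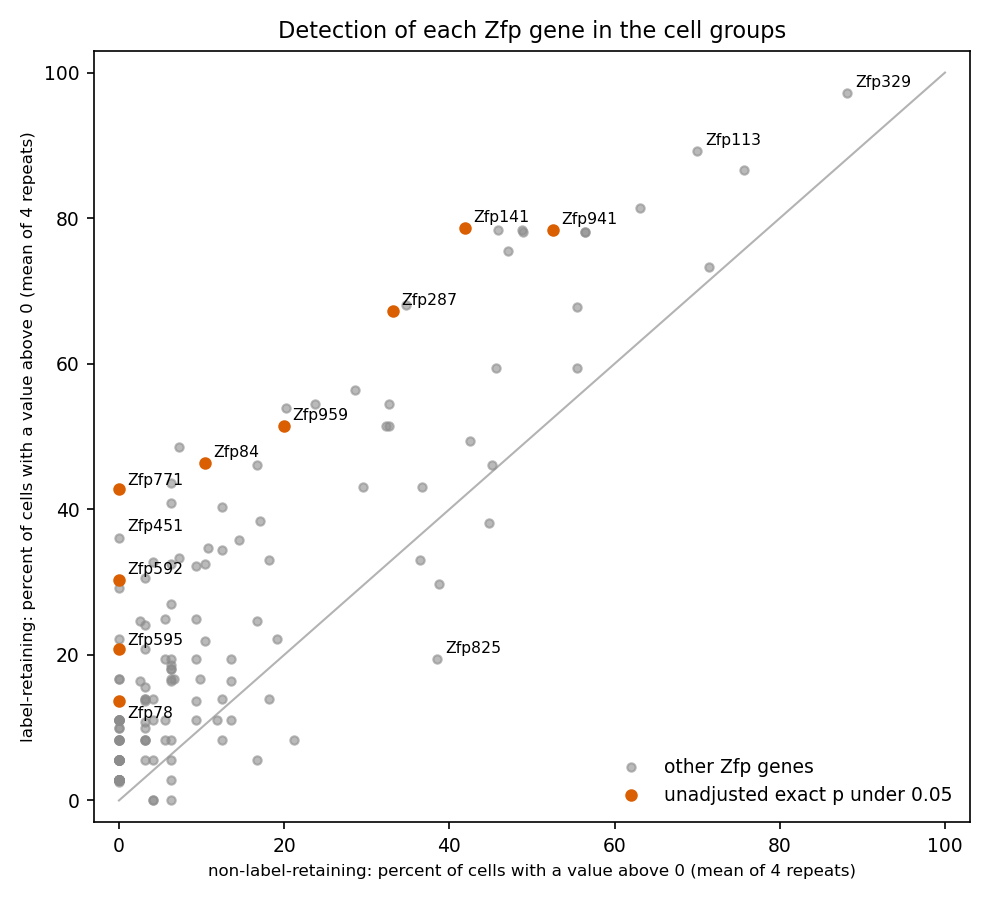
Each point is a Zfp gene, with the mean share of aLR-HSCs that had it on the vertical axis and the mean share of anLR-HSCs on the horizontal axis, each over 4 repeats, and with a line where both are equal. Of the 158 points 143 lie above the line, a count not given for all genes, and the orange points are the 9 genes with an unadjusted exact p of 0.0286.

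Of the 158 Zfp genes, 143 had a larger mean share in aLR-HSCs and 15 in anLR-HSCs. The matching count over all genes is not given here. Their mean share was also larger in aLR-HSCs, at 28.2% against 16.0% in anLR-HSCs, so nothing particular to Zfp genes is read from the 143. In 4 of 4 repeats the share was larger in aLR-HSCs for 25 Zfp genes, or 15.8%, beside 15.5% of all genes. In aLR-HSCs alone 56 Zfp genes were detected, or 35.4%, beside 24.1% of all genes, and without anLR-HSC 3 of repeat 1 this was 61 Zfp genes, or 38.6%, beside 26.3%. In anLR-HSCs alone 3 were detected, namely Zfp27, Zfp60 and Zfp879, or 1.90%, beside 4.81% of all genes. The aLR-HSCs were also more numerous, 37 against 28, and had the higher median summed count given above, and the part of both in these numbers was not tested.

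Beside Zfp771, Zfp592, Zfp595 and Zfp78, another 5 genes were detected in at least 5 aLR-HSCs and in 0 anLR-HSCs. Zfp451, known in human cells as a ligase for SUMO, was detected in 13 aLR-HSCs of repeats 1, 2 and 4. Zfp629 was detected in 11, Zfp746, a repressor of the gene for PGC-1alpha that parkin degrades, in 8, Zfp938 in 6 and Zfp503, a developmental corepressor, in 6. Each of these 5 was at 0 in the aLR-HSCs of at least 1 repeat, and their exact permutation p was 0.143 or 0.429 (unadjusted, 4 repeats against 4).

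The largest differences toward anLR-HSCs were those of Zfp825, Zfp28, Zfp235, Zfp689 and Zfp715. Zfp825 was detected in 55.6%, 0%, 0% and 22.2% of aLR-HSCs and in 62.5%, 75.0%, 16.7% and 0% of anLR-HSCs, so the groups overlapped (exact permutation p = 0.400, 4 repeats against 4). Zfp28 was detected in 3 aLR-HSCs and 5 anLR-HSCs, and Zfp235 in 2 aLR-HSCs and 3 anLR-HSCs. Zfp689 was detected in 11 aLR-HSCs and 10 anLR-HSCs, with mean shares of 29.7% ± 18.9 in aLR-HSCs and 38.8% ± 13.1 in anLR-HSCs. None of these 5 passed the test on the deposited values. At 10000 counts a cell, Zfp689 had shares of 2.82% in aLR-HSCs and 18.2% in anLR-HSCs, which did not overlap over repeats (exact permutation p = 0.0286, unadjusted, 4 repeats against 4). At that setting 6 Zfp genes stood at the same p with the larger share in aLR-HSCs, among them Zfp68, Zfp407 and Zfp608. The matching counts over all genes are not given here, so nothing particular to Zfp689 or to the Zfp genes is read from them.

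For levels, all cells of 1 group in 1 repeat were added up, as CPM (counts scaled to library size) with TMM factors, with edgeR's quasi-likelihood test. Of the Zfp genes 52 passed the filter on low counts. None of the 2786 genes tested passed an adjusted p of 0.05, which is 0% of all genes and 0 of 52 Zfp genes, and the smallest edgeR adjusted p of a Zfp gene was 0.326. At an unadjusted p below 0.05, 9 Zfp genes were higher in aLR-HSCs, beside 6.46% of all genes, and 2 were lower, beside 4.38%. Of the 9, Zfp451, Zfp592 and Zfp771 had no value in any anLR-HSC and passed the filter through aLR-HSCs alone. Zfp68, Zfp84, Zfp110, Zfp157 and Zfp407 summed to no more than 2 counts in any anLR-HSC repeat and passed almost through aLR-HSCs alone. Zfp655 summed to 2, 4, 3 and 3 counts in anLR-HSC repeats 1 to 4 and also passed mainly through aLR-HSCs. Nothing is therefore read from this count. With the replicate as a block, the Zfp counts were 6 higher and 0 lower. With scaling by total counts, 230 genes were higher and 43 lower at that p, in place of 180 and 122, and the median log2 fold change of all genes was 1.78 in place of 1.15. The median over the 52 Zfp genes was 0.84 with TMM and 1.42 with scaling by total counts. The TMM factors behind the CPM values ran from 1.44 to 2.04 in aLR-HSCs and from 0.223 to 1.51 in anLR-HSCs.

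The 9 were Zfp592, Zfp771, Zfp451, Zfp157, Zfp110, Zfp84, Zfp68, Zfp407 and Zfp655. Zfp771 had 9.22, 45.1, 94.0 and 21.2 CPM in aLR-HSC repeats 1 to 4 and 0 CPM in each anLR-HSC repeat. Zfp68, a KRAB zinc finger gene, had 40.0, 145.1, 120.4 and 30.5 CPM in aLR-HSC repeats, against 1.33, 0, 3.83 and 0 CPM in anLR-HSC repeats. Zfp655 had 10, 800.3, 60.3 and 14.1 CPM in aLR-HSCs and 1.33, 15.7, 5.75 and 7.91 CPM in anLR-HSC repeats. The groups did not overlap for Zfp771 and Zfp68, but both passed the filter through aLR-HSCs alone or nearly so, and nothing is read from that. They overlapped for Zfp655, whose log2 fold change was 4.89 with a standard error of 2.40 (edgeR adjusted p = 0.434). As Zfp655 also passed the filter mainly through aLR-HSCs, nothing is read from that fold change.

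Zfp110, known in mouse as a partner of a neurotrophin receptor, had 25.3, 212.9, 3.80 and 6.63 CPM in aLR-HSCs and 1.33, 0, 0 and 0 CPM in anLR-HSC repeats. A single cell gave 3891 of its counts. For Zfp157 and Zfp407, 1 cell gave 94.9% and 94.4% of all counts in the series. The value of 1 cell thus set much of the level of these genes.

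The 2 lower genes were Zfp715 and Zfp384. Zfp715 had 104.6, 222.7, 11.2 and 17.2 CPM in aLR-HSC repeats and 148.2, 39.4, 42259 and 0 CPM in anLR-HSC repeats. Zfp384, known as a DNA-binding protein of bone-forming cells, had 2.17, 224.5, 3.32 and 11.9 CPM in aLR-HSCs and 6.68, 7.87, 10514 and 0 CPM in anLR-HSC repeats. Both high values came from the same cell, anLR-HSC 17 of repeat 3, which held 22058 counts of Zfp715, or 3.34% of the cell's counts, and 5489 of Zfp384. Without repeat 3 no Zfp gene was lower at an unadjusted edgeR p below 0.05.

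Members that lie close together were grouped into clusters, with a new cluster wherever the gap to the next Zfp gene exceeded 1 Mb and with at least 3 members. Each cluster is named here by its first and last gene. There were 16 clusters with 108 Zfp genes, of which 8 clusters with 68 genes lay on chromosome 7, and 50 Zfp genes were scattered. The share of a cluster's genes detected in a mean cell was larger in aLR-HSCs in 15 of the 16 clusters. In 6 clusters it was larger in each of the 4 repeats, and at 10000 counts a cell 13 of the 16 had the larger share in aLR-HSCs. Over all genes the share was also larger in aLR-HSCs, at 28.2% against 16.0% in anLR-HSCs, with no overlap between the repeats. At 10000 counts a cell it was 12.7% against 8.42%. Nothing particular to the Zfp clusters is therefore read from these counts, or from shares of single clusters that do not overlap.

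**Figure D5:**
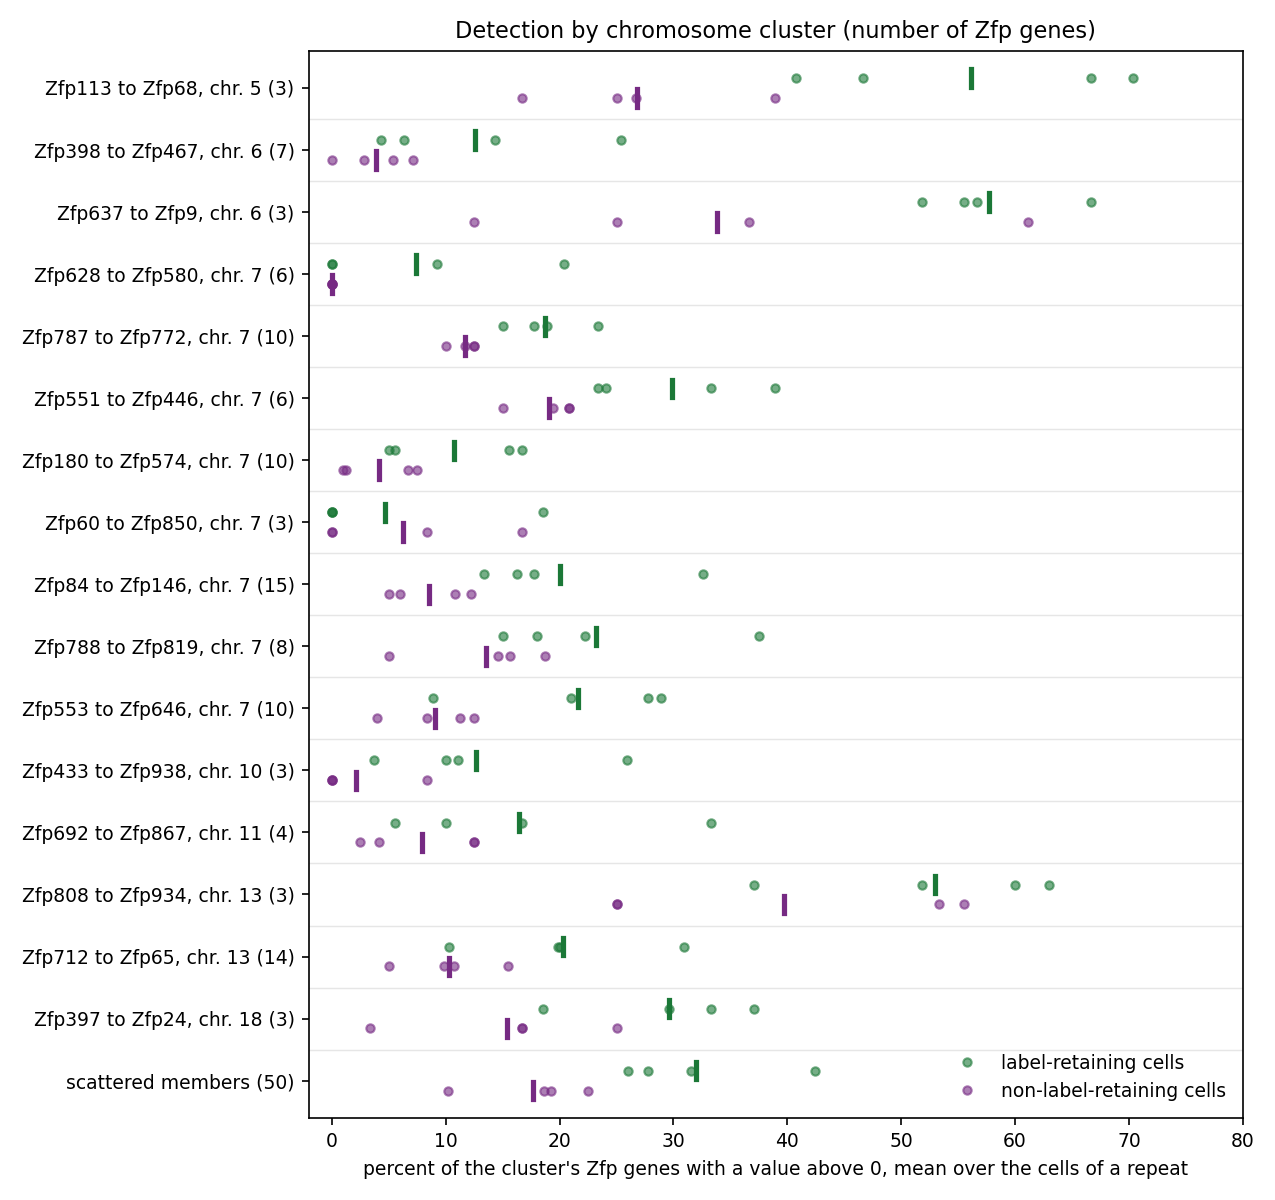
Rows are the 16 chromosome clusters in genome order and the scattered genes, named by first and last gene with the number of Zfp genes, and the horizontal axis gives the percent of these genes with a value above 0 in a mean cell. Points are the 4 repeats and bars their means, with aLR-HSCs above anLR-HSCs in each row. The cluster of Zfp113 reaches 70.4% in 1 aLR-HSC repeat, and the cluster of Zfp628 lies at 0% in all anLR-HSC repeats.

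The largest cluster ran from Zfp84 to Zfp146 over 401 kb of chromosome 7 (chr7:29768552-30169775) and held 15 Zfp genes. Of these, 32.6%, 16.3%, 13.3% and 17.8% were detected in a mean aLR-HSC of repeats 1 to 4, against 10.8%, 5.00%, 12.2% and 6.00% in a mean anLR-HSC. The groups did not overlap, with means of 20.0% ± 8.60 in aLR-HSCs and 8.51% ± 3.55 in anLR-HSCs (SD, n = 4 repeats each). An aLR-HSC had up to 8 of the 15 genes and an anLR-HSC up to 7, and the one with 7 was anLR-HSC 3 of repeat 1, without which the mean of the anLR-HSCs was 7.23%. Its most detected genes were Zfp940, in 28 aLR-HSCs and 12 anLR-HSCs, and Zfp74, in 19 aLR-HSCs and 10 anLR-HSCs.

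The next in size ran from Zfp712 to Zfp65 over 691 kb of chromosome 13 and held 14 Zfp genes. Its share was 20.3% ± 8.43 in aLR-HSCs and 10.3% ± 4.29 in anLR-HSCs. Zfp65 was detected in 22 aLR-HSCs and 15 anLR-HSCs, and Zfp459 in 16 aLR-HSCs and 10 anLR-HSCs. At 10000 counts a cell the share of the cluster was 4.79% in aLR-HSCs and 5.45% in anLR-HSCs.

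On the same chromosome, the cluster of Zfp808, Zfp934 and Zfp935 had the smallest ratio among the clusters with a higher share in aLR-HSCs. Its share was 53.0% ± 11.6 in aLR-HSCs and 39.7% ± 17.0 in anLR-HSCs. Fractional values made up 86.2% of its non-zero values. The cluster on chromosome 5, of Zfp113, Zfp157 and Zfp68, had 66.7%, 70.4%, 46.7% and 40.7% in aLR-HSC repeats against 25.0%, 16.7%, 38.9% and 26.7% in anLR-HSC repeats, with no overlap. Its difference of 29.3 percentage points was the largest of the 16.

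The first cluster on chromosome 7, from Zfp628 to Zfp580, had no detection in anLR-HSCs. It spanned 139 kb and its 6 genes had a share of 20.4%, 0%, 0% and 9.26% in aLR-HSC repeats and of 0% in every anLR-HSC repeat. All its detections came from 9 aLR-HSCs of repeats 1 and 4, and Zfp579 and Zfp784 were each detected in 4 of these cells. Only 6.25% of its non-zero values were fractional.

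The cluster from Zfp787 to Zfp772, also on chromosome 7, holds Zfp444 and had a share of 18.8% ± 3.47 in aLR-HSCs and 11.7% ± 1.18 in anLR-HSCs. The cluster from Zfp551 to Zfp446 holds Zfp329 and Zfp110 and had 29.9% ± 7.52 in aLR-HSCs and 19.0% ± 2.76 in anLR-HSCs. Near Zfp444, Zfp418 was detected in 8 aLR-HSCs and 3 anLR-HSCs, with 13418 counts in the deepest cell. The neighbour Zfp78 reached no more than 0.5, and Zfp28 was detected in 3 aLR-HSCs and 5 anLR-HSCs. Neighbours within 1 cluster thus differed widely in how many cells had them.

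The cluster from Zfp60 to Zfp850 was the one with the smaller share in aLR-HSCs, 4.63% ± 9.26 against 6.25% ± 7.98 in anLR-HSCs. It rested on 4 cells in each group, and Zfp60 itself was at no more than 0.167 counts and had 1 of its 2 detections in anLR-HSC 3 of repeat 1. Between Zfp788 and Zfp819 the share was 23.2% ± 9.99 in aLR-HSCs and 13.5% ± 5.93 in anLR-HSCs, and Zfp141 and Zfp715 were its most detected genes. From Zfp553 to Zfp646, which holds Zfp771, Zfp689 and Zfp629, it was 21.6% ± 9.19 in aLR-HSCs and 9.02% ± 3.78 in anLR-HSCs. From Zfp180 to Zfp574, which holds Zfp108, Zfp93, Zfp111, Zfp235 and Zfp575, it was 10.7% ± 6.28 in aLR-HSCs and 4.10% ± 3.46 in anLR-HSCs.

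The clusters of the other chromosomes held 3 to 7 Zfp genes. On chromosome 6, the cluster from Zfp398 to Zfp467 had 12.6% ± 9.57 in aLR-HSCs and 3.84% ± 3.10 in anLR-HSCs, with Zfp282 in 9 aLR-HSCs and in 1 anLR-HSC, anLR-HSC 3 of repeat 1, and Zfp212 in 5 aLR-HSCs and 4 anLR-HSCs. The other cluster of that chromosome, from Zfp637 to Zfp9, had 57.7% ± 6.33 in aLR-HSCs and 33.8% ± 20.7 in anLR-HSCs, with Zfp248 and Zfp9 detected most. On chromosome 10, Zfp433 to Zfp938 had 12.7% ± 9.41 in aLR-HSCs and 2.08% ± 4.17 in anLR-HSCs, and 1.19% in anLR-HSCs without anLR-HSC 3 of repeat 1. On chromosome 11, Zfp692 to Zfp867 had 16.4% ± 12.2 in aLR-HSCs and 7.92% ± 5.34 in anLR-HSCs, with Zfp672 and Zfp39 detected most. On chromosome 18, Zfp397 to Zfp24 had 29.6% ± 8.00 in aLR-HSCs and 15.4% ± 8.96 in anLR-HSCs, and Zfp24, a SCAN protein, was in 15 aLR-HSCs and in 4 anLR-HSCs, all of repeat 1. The 50 scattered genes had 31.9% ± 7.37 in aLR-HSCs and 17.7% ± 5.25 in anLR-HSCs.

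A few Zfp genes with known roles were picked for those roles after their values had been seen. Zfp445, which protects imprints, was detected in 16 aLR-HSCs and 2 anLR-HSCs, and its value of 11303 in the deepest cell, which is an aLR-HSC, stood beside 246 in anLR-HSC 3 of repeat 1. Zfp568, a repressor of a placental Igf2 promoter, was detected in 10 aLR-HSCs and 2 anLR-HSCs, with 13994 in the deepest cell and 225 in that anLR-HSC. Zfp207, whose human counterpart binds spindle microtubules, was detected in 22 aLR-HSCs and 12 anLR-HSCs. Zfp521, known in early blood progenitors, was detected in 3 aLR-HSCs and 2 anLR-HSCs with no value above 14.0. Zfp281, a regulator in embryonic stem cells, was detected in 6 aLR-HSCs and 3 anLR-HSCs, and Zfp638, which acts in silencing of unintegrated retroviral DNA, in 25 aLR-HSCs and 9 anLR-HSCs. Zfp62 had the smaller share in aLR-HSCs, 33.1% ± 31.7 against 36.5% ± 36.9 in anLR-HSCs (SD, n = 4 repeats each), and the groups overlapped.

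Proteins that act with KRAB zinc finger proteins or in heterochromatin were taken as a list of 37 genes, of which 17 had a row and all 17 were detected. Trim28, the corepressor that KRAB domains recruit, was detected in 14 of 37 aLR-HSCs and 5 of 28 anLR-HSCs (exact permutation p = 0.0857, unadjusted, 4 repeats against 4). The HP1 genes Cbx1 and Cbx3 were detected in 26 and 27 aLR-HSCs and in 15 and 16 anLR-HSCs. Resf1, which acts in retroelement silencing, was detected in 29 aLR-HSCs and 13 anLR-HSCs, with the smallest possible unadjusted p of 0.0286, and it was the only 1 of the 17 at that p in either direction, where 4.81% of all genes were at that p with the larger share in aLR-HSCs and 0% with the smaller.

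The mean share over the 17 genes was 42.7% ± 10.9 in aLR-HSCs and 23.3% ± 3.33 in anLR-HSCs, and 16 of the 17 had the larger share in aLR-HSCs. The mean share over all genes was also larger in aLR-HSCs, so nothing particular to the 17 is read from that count. Other zinc finger genes, such as the Zbtb, Zscan, Zkscan and Klf genes, had 51 detected members with a mean share of 20.9% ± 5.69 in aLR-HSCs and 10.7% ± 3.98 in anLR-HSCs. The ratio of the groups was 1.84 for the partner genes and 1.95 for these other zinc finger genes, beside 1.90 for the Zfp genes and 1.76 for all genes. The ratio for the Zfp genes lay between those of these lists, and no test was made between them.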

How the data were processed

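Single-cell RNA was read in 65 cells of 4 biological repeats. Per the labels' protocols, cDNA came from SMART-Seq v4 and libraries from Nextera XT, without strand or molecular identifiers. The deposited table gives estimated counts, and the submitters' processing notes name mm10 and DESeq. The aligner, the counter and the gene models were not given in the sources used here. These values are unscaled, as sums per cell differ widely, and these sums cover only genes with a row. Of 18036 gene identifiers, 16262 matched RefSeq GRCm38.p6, which gave symbols and coordinates. No per-sample column was left unused.

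The repeat was the unit, since cells are not replicates. Detection shares were compared by exact permutation (70 arrangements) over 6826 genes. Counts were summed by repeat and group, rounded, filtered (a mean of at least 10 per cell and values in at least 10 cells) and tested with edgeR 4.0.16 (TMM, quasi-likelihood, R 4.3.3), with Benjamini-Hochberg adjustment and DESeq2 1.42.0 as an alternative. Both tests were tested on simulated data. Same-numbered repeats of the groups deviated together, with correlations of 0.556, 0.274, 0.176 and 0.137 for repeats 1 to 4. Of the differently numbered pairs, aLR-HSC 4 with anLR-HSC 3 gave 0.164 and aLR-HSC 3 with anLR-HSC 4 gave 0.110. The sums of repeat 1 hold the counts shared by cell 3 of both groups, whose part in the 0.556 was not tested. The numbers, shared in the labels' series design, were taken to pair the samples. Neither main test used the pairing, and edgeR with the replicate as a block is given as an alternative. Intervals and floors cover counting error only. Transcripts came from GENCODE M21.

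The Zfp genes, lists and tests were chosen with earlier results of these data known. The text names the 12 Zfp genes detected in most cells, those with an unadjusted p below 0.05 in either test, those in at least 5 cells of one group and 0 of the other, the 2 most detected per cluster and the 5 with the largest difference toward anLR-HSCs. Alternatives were other detection limits, 10000 counts a cell, other gaps, scalings and filters, and leaving out repeats or cells.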

Additional observations from a re-analysis of the deposited data

Results flagged for a closer look

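Each set of 4 repeat shares was tested for a repeat far from the other 3 (Dixon's test at the 95% level), and 7 of 52 sets were marked, where chance marks about 1 in 20. Tied shares of a few cells give such marks easily. In aLR-HSCs, the cluster from Zfp60 to Zfp850 stood at 18.5% in repeat 4 and 0% in the others. Zfp78 stood at 22.2% in repeat 4, against 10% to 11.1% in the other aLR-HSC repeats. Zfp595 stood at 50% of aLR-HSCs in repeat 3, against 11.1% in each of the others. Zfp941 was marked in both groups, at 80% in aLR-HSC repeat 3, where the others stood at 77.8%, and at 60.0% in anLR-HSC repeat 4, where the others stood at 50%. In anLR-HSCs, the cluster from Zfp433 to Zfp938 stood at 8.33% in repeat 1 and 0% in the others. Zfp959 stood at 0% of anLR-HSCs in repeat 3, against 25.0% to 30.0% in the others.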

How the results depend on the processing

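Leaving out any repeat gave differences in the share of Zfp genes per cell of 8.83 to 13.9 percentage points, beside 11.7 with all repeats, and at 10000 counts a cell the difference was 2.56. The number of Zfp genes with a larger share in aLR-HSCs in all repeats was 25, and it was 14 at values of at least 10, 15 at 10000 counts a cell, 13 with whole values alone, and 27 to 44 when a repeat was left out, where fewer repeats must coincide. The 9 Zfp genes at the smallest unadjusted p became 3 with whole values alone. They became 16 when values under 2% of the gene's highest in the repeat were counted as 0. Both settings, and the runs without anLR-HSC 3 of repeat 1, were chosen after seeing the data, and the last gave 11. Matching counts over all genes at these other settings are not given here for either number, so nothing particular to the Zfp genes is read from them. With values under 2% as 0, the ratio of aLR-HSCs to anLR-HSCs in the share detected was 2.38 for the Zfp genes and 2.59 for all genes. Zfp141 turned to a difference of -12.8 percentage points with whole values alone and Zfp941 to -1.08 at 10000 counts; the cause was not tested. DESeq2 called 11 genes at an adjusted p below 0.05, 6 higher and 5 lower and 0 of them Zfp genes, where edgeR called 0 under every setting, the replicate block included. With the replicate block, unadjusted edgeR calls over all genes were 212 higher and 9 lower. Without anLR-HSC 3 of repeat 1, 14 Zfp genes were higher and 1 lower at that p, beside 330 and 126 of 2742 genes tested, and without a repeat 3 to 8 were higher and 0 to 2 lower. Without a gene filter the numbers were 20 and 1, beside 556 and 346 of 6743 genes. Clusters with a larger share in aLR-HSCs numbered 13 to 16 over all settings at a gap of 1 Mb, 11 of 12 at 0.25 Mb and 14 of 14 at 3 Mb. The mean share over all genes was also larger in aLR-HSCs, so nothing particular to the clusters is read from these numbers. Leaving out a repeat allows no exact p under 0.10 and repeats as pairs none under 0.125, so neither was run as a count of calls. Sums per cell down to 86 limit every statement on absence.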

Other observations

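Neighbouring cell numbers shared Zfp genes in one group. Over 33 pairs of aLR-HSCs with consecutive numbers in a repeat, the median share of Zfp genes detected in both, out of those detected in either, was 38.8%, and over 120 other pairs of the same repeats it was 28.3%. Over 24 consecutive and 70 other pairs of anLR-HSCs it was 24.6% and 27.7%. Over all genes the medians were 41.2% and 32.6% in aLR-HSCs and 29.6% and 25.3% in anLR-HSCs, consecutive pairs first. The pairs of aLR-HSCs that shared counts, given above, include consecutive ones, such as 3 and 4 of repeat 1 and 17 and 18 of repeat 2. They also include others, such as 11 and 13 of repeat 2. Their part in these medians was not tested. What the numbers stand for is not given in the labels, and no test was made.

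The finger motif was found in all but 5 of the 157 Zfp proteins with a transcript, with a median of 10 fingers and 37 in Zfp142. A sequence pattern for part of the KRAB domain matched 67 of them, which says only that the letters occur.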
